A study of Homo sapiens with 8 samples.

Results

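The regions described here are promoters of long non-coding RNA (lncRNA) genes that have no protein-coding promoter beside them, as marked by open chromatin in U2OS cells. Peaks of 8 deposited lists on chromosomes 1 to 22 and X were merged wherever they shared 1 bp, which gave 52105 regions. Of these, 31829 held a peak in 2 or more lists. A region was kept when it was also under 2000 bp long, lay within 1 kb of the transcription start site (TSS) of a GENCODE lncRNA transcript, and lay more than 1 kb from the TSS of every protein-coding gene. The selection left 1899 regions, here called lncRNA promoters. Peak presence and region width therefore chose the regions, and recurrence and width are given below as description. For comparison, 15093 equally narrow regions with a peak in 2 or more lists lay within 1 kb of a protein-coding TSS, and 14513 lay more than 1 kb from any TSS of either kind (distal regions).

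The data are FAIRE-seq profiles (formaldehyde-assisted isolation of regulatory elements), an assay that recovers DNA not held in nucleosomes. The study asked whether ZBTB48, a zinc finger protein that binds telomeric repeats and some gene promoters, acts on the openness of promoters. U2OS is a human osteosarcoma cell line, and 4 clones of it were used, WT_4 and WT_5 (wild type, WT) and KO_C5 and KO_D2 (ZBTB48 knockout, KO). Each clone gave 1 library from untreated cells and 1 from cells given 250 U/ml interferon gamma (IFNγ), so each of the 4 groups held 2 libraries. Each genotype thus rests on 2 clones, each of them a single line, and peak lists do not show whether ZBTB48 itself was lost. The labels give 24 h of IFNγ, but a longer exposure is stated for FAIRE-seq in the study's text, so the duration is uncertain.

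lncRNA genes are transcribed by RNA polymerase II from promoters that resemble those of protein-coding genes in having a nucleosome-free stretch just upstream of the TSS. Many are weak, tissue-restricted or share sequence with enhancers, while others, such as the hosts of small nucleolar RNAs, are transcribed in most cells. IFNγ acts through the receptor-bound kinases JAK1 and JAK2, and many promoters that respond to it carry gamma-activated sites (GAS) or interferon-stimulated response elements (ISRE), which IRF1 binds.

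Sequences of 300 bases centred on the strongest summit, the base of highest signal, are printed for 7 lncRNA promoters. All are in GRCh38, read 5′ to 3′ on the strand of the lncRNA. Capitals mark matches, on either strand, to 10 searched motifs. The telomeric hexamer TTAGGG, to which ZBTB48 binds at telomeres, was searched beside the control hexamer of the study, GTGAGT. Core promoter motifs were the CCAAT box and the TATA box, spelled TATAAA. The GC box, the site of Sp1-like factors, was searched as GGGCGG. The site of ETS factors was searched as CCGGAAGT. The site of AP-1, the factor of Jun and Fos proteins, was searched as TGANTCA, with N for any base. The GAS motif was searched as TTCNNNGAA. The ISRE core was 2 copies of GAAA spaced by 2 bases of any kind, and the core of the CTCF site was the last motif. DANCR (chr4:52712234-52712533, + strand), host of a small nucleolar RNA, and MALAT1 (chr11:65497429-65497728, + strand), a nuclear speckle RNA, are shown as strong promoters open in all 8 libraries.
DANCR: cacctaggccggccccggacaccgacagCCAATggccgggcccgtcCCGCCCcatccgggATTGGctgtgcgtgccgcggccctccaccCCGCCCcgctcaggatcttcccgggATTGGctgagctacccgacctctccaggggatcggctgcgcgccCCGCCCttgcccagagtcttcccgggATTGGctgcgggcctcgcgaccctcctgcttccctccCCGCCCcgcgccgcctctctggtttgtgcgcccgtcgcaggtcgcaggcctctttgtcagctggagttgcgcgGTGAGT
MALAT1: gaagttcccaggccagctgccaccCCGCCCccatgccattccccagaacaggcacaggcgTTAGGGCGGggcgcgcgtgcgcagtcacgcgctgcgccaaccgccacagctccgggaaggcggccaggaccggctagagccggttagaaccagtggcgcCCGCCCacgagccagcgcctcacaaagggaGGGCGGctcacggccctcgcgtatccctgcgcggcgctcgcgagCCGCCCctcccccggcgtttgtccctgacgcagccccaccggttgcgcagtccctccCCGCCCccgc
The DANCR window held 4 CCAAT boxes and 4 GC boxes, and MALAT1 held 6 GC boxes, 1 of them overlapping its single TTAGGG.

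The next 3 windows are from regions called as different between IFNγ and untreated libraries, by strength or by presence of a peak. LINC01270 (chr20:50292622-50292921, + strand) was open in every library and stronger in each IFNγ library. ENSG00000233096 (chr3:40971793-40972092, - strand) and ENSG00000226115 (chr21:46056526-46056825, + strand), lncRNA genes without a symbol, had a peak in the 4 IFNγ libraries alone. Those peaks were weak, and a region without a peak may be open below the calling threshold.
LINC01270: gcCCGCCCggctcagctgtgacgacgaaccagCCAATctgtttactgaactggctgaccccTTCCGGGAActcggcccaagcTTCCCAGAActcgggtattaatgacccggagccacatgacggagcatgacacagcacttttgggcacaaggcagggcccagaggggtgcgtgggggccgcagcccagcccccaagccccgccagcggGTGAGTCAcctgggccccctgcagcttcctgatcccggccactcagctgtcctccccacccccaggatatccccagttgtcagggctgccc
ENSG00000233096: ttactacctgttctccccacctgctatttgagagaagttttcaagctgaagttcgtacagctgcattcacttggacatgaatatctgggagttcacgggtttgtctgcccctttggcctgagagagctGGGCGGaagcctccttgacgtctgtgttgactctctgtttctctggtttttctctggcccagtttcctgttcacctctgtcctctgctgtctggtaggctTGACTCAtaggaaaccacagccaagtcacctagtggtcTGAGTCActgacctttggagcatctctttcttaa
ENSG00000226115: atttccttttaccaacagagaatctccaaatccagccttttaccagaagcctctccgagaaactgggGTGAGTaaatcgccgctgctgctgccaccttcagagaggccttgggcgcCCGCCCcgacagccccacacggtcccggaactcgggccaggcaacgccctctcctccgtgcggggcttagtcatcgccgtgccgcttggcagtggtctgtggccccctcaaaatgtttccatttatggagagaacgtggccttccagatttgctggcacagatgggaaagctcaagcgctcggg
LINC01270 held 2 GAS matches, at bases 62 to 70 and 83 to 91 of the window, and a GTGAGT that overlapped an AP-1 match. ENSG00000233096 held 2 AP-1 matches and a GC box, and ENSG00000226115 a GTGAGT and a GC box.

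A last pair shows regions that differed between WT and KO clones. ENSG00000267388 (chr19:35959117-35959416, + strand) was open in all libraries and stronger in each WT library, and ENSG00000287407 (chr6:170160268-170160567, - strand) had a peak in the 4 WT libraries alone.
ENSG00000267388: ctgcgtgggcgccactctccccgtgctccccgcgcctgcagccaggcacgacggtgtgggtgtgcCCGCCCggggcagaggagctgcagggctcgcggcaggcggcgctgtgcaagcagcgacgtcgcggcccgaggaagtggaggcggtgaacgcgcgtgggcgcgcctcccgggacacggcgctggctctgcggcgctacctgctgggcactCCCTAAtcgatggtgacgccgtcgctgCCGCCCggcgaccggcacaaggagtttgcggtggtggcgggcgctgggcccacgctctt
ENSG00000287407: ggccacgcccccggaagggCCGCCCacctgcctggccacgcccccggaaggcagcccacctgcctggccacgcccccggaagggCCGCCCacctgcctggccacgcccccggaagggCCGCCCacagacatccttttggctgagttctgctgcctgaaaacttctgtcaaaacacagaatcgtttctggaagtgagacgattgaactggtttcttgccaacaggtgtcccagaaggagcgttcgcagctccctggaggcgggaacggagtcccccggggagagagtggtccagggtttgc
The first held 1 TTAGGG on the opposite strand and 2 GC boxes, and the second 3 GC boxes and no TTAGGG. A match is a description of letters and not a measured binding site.

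Across all windows, lncRNA promoters lay between protein-coding promoters and distal regions in base composition. The median GC content was 62.0% at lncRNA promoters, 68.3% at protein-coding promoters and 55.3% at distal regions. The CpG ratio (observed over expected CpG) had medians of 0.652, 0.846 and 0.368 in the same order, and reached 0.6 in 55.0%, 84.3% and 22.6% of windows. A GC box was found in 52.8% of lncRNA promoters, 74.8% of protein-coding promoters and 28.8% of distal regions, and an AP-1 match in 19.3%, 6.88% and 33.6%. The ETS motif was found in 2.79%, 6.67% and 0.751%. TTAGGG was found in 8.0% of lncRNA promoters, 6.77% of protein-coding promoters and 7.15% of distal regions, and GTGAGT in 16.1%, 12.8% and 20.8%. A GAS match was found in 6.32% of lncRNA promoters and an ISRE core match in 3.42%, against 4.45% and 2.41% of protein-coding promoters and 9.67% and 5.55% of distal regions. CCAAT (25.3%, 31.3% and 24.5%), TATAAA (5.16%, 2.89% and 9.23%) and the CTCF core (8.06%, 6.69% and 8.28%) completed the search.

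Most open regions near a lncRNA TSS also lay near a protein-coding one. Of 6545 regions within 1 kb of a lncRNA TSS, 5191 held a peak in 2 or more lists and 5060 of those were under 2000 bp, of which 3161 (62.5%) were set aside for a protein-coding TSS within 1 kb. A further 923 regions that met the other criteria had a peak in 1 list only, and 14 were too wide. Just inside the limits lay a region of 1995 bp at ENSG00000260877, one 997 bp from the TSS of ENSG00000274251, and one 1006 bp from a protein-coding TSS at LNX1-AS2. Just outside lay a region of 2009 bp, one 1006 bp from a lncRNA TSS, and one 1000 bp from a protein-coding TSS. At the lower limit of recurrence, 334 lncRNA promoters had a peak in exactly 2 lists.

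The 1899 lncRNA promoters lay near 1929 of the 18756 annotated lncRNA genes. By the nearest gene, 1034 (54.4%) belonged to lncRNA genes without a symbol, 419 (22.1%) to LINC genes, 162 (8.53%) to genes with an antisense symbol, 56 (2.95%) to genes named as small RNA or microRNA hosts, and 23 (1.21%) to genes named as divergent transcripts. Most, 1558 (82.0%), had their summit outside protein-coding genes, 267 (14.1%) lay antisense within one and 74 (3.90%) on the same strand within one. The median distance to a protein-coding TSS was 27436 bp, with 305 regions (16.1%) between 1 and 5 kb and 400 (21.1%) beyond 100 kb. Several lncRNA promoters could belong to 1 gene with many annotated starts. LINC00511 had 10, FAM182B and PVT1 had 5 each, and 1734 genes had 1.

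The place of the summit describes how the regions lie around the TSS. It cannot check the label of promoter, because the rule already kept only regions within 1 kb of a lncRNA TSS. A lncRNA TSS lay inside 1243 regions (65.5%), and the strongest summit lay within 100 bp of the nearest lncRNA TSS in 837 (44.1%) and within 250 bp in 61.6%. Summits lay upstream of the TSS in 60.5% of regions, with a median position of -24 bp. Regions open in all 8 libraries had the summit within 100 bp more often than the rest, 56.5% against 38.3%. The remaining regions held no annotated start under the peak, so the name promoter rests there on nearness alone.

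**Figure D1:**
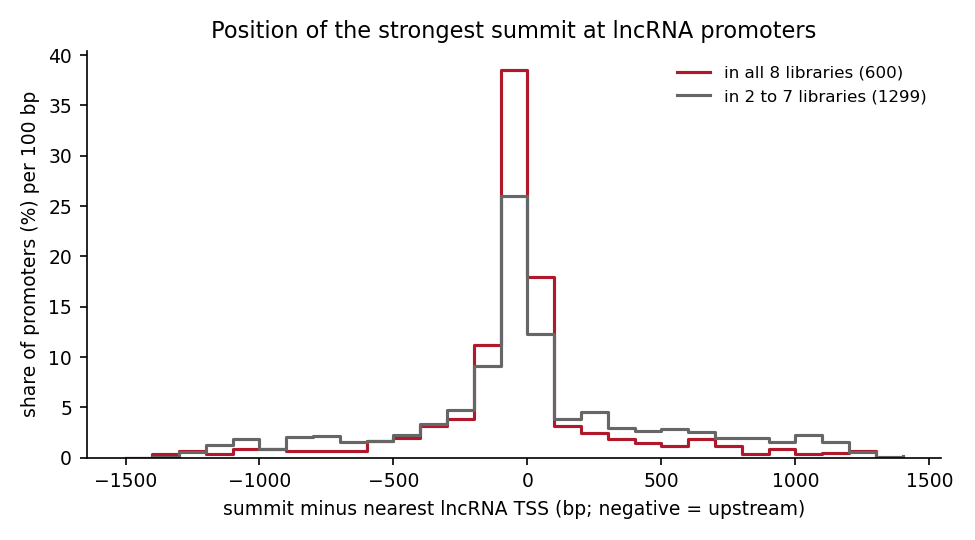
Position of the strongest summit relative to the nearest lncRNA TSS (x axis, bp, negative upstream) as the share of regions per 100 bp (y axis, %), for 600 lncRNA promoters open in all 8 libraries (red) and 1299 open in 2 to 7 (grey). Both curves peak in the 100 bp upstream of the TSS, and the red curve is the higher one there.

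lncRNA promoters recurred across libraries more often than distal regions and less often than protein-coding promoters. A peak in all 8 libraries was found at 600 of 1899 (31.6%, exact binomial 95% interval 29.5% to 33.7%, covering counting error only), against 61.3% of protein-coding promoters and 9.61% of distal regions. A peak in exactly 2 libraries was found at 17.6%, 8.93% and 31.5% of the 3 classes. The counts of lncRNA promoters with a peak in 2, 3, 4, 5, 6, 7 and 8 libraries were 334, 277, 240, 171, 137, 140 and 600. The distribution thus had its mode at all 8 libraries and a smaller rise towards 2. Median region width was 501 bp (interquartile range 356 to 745.5) at lncRNA promoters, 742 bp at protein-coding promoters and 387 bp at distal regions. Region width is the span of all merged peaks and so depends on recurrence. The median width of single peaks ran over libraries from 348 to 442.5 bp, 430 to 617 bp and 294 to 346 bp in the same order of classes.

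**Figure D2:**
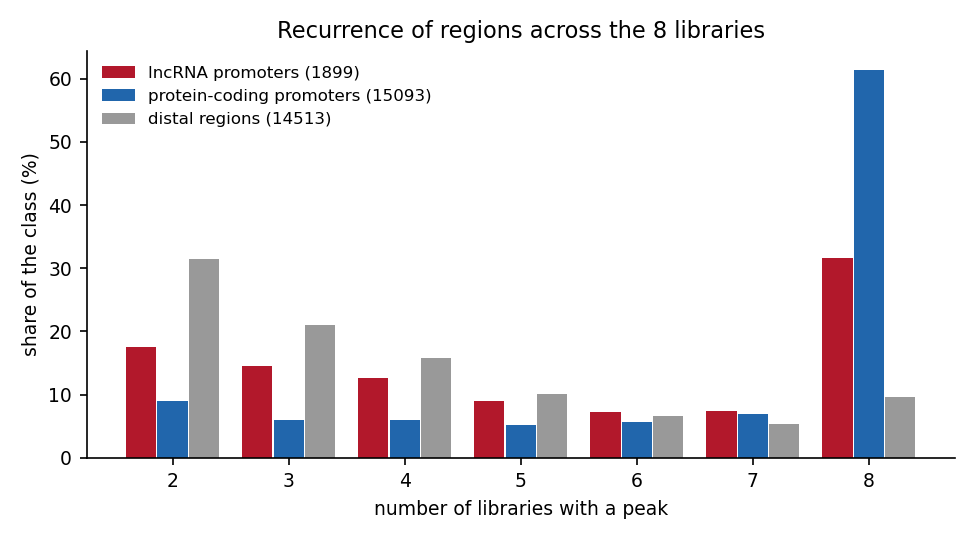
Share of each class of region (y axis, %) by the number of libraries with a peak (x axis), for 1899 lncRNA promoters (red), 15093 protein-coding promoters (blue) and 14513 distal regions (grey). In all 8 libraries the bars stand at 31.6%, 61.3% and 9.61%.

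Recurrence, width, strength and CpG content moved together among the lncRNA promoters. Median width rose from 334 bp at regions in 2 libraries to 761 bp at regions in all 8, and the share that held a TSS rose from 47.9% to 84.3%. A region spans all of its merged peaks, so regions with peaks in more libraries are wider in part by construction. A wider region also holds a TSS more easily, and the size of these parts was not tested. Strength is given as the percentile of a peak's −log10 p among all peaks of its own library, from 0 for the weakest to 100 for the strongest. The mean percentile over the libraries with a peak had a median of 21.5 at regions in 2 libraries and 68.9 at regions in all 8. Fold enrichment at the summit over local background had medians of 6.15 and 22.4. Regions in all 8 libraries had a median GC content of 68.3% and a CpG ratio of 0.825, and those in 2 to 7 had 59.0% and 0.518. A GC box was found in 78.2% of the former and 41.0% of the latter, and an AP-1 match in 10.2% and 23.6%. Of 1044 regions with a CpG ratio of 0.6 or more, 50.8% were open in all 8 libraries, against 8.19% of the 855 with a lower ratio.

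By kind of gene, a peak in all 8 libraries was found at 48.2% of the small RNA and microRNA hosts, 30.3% of LINC genes, 30.2% of genes with an antisense symbol, 29.5% of genes without a symbol, 43.9% of the 205 with another symbol and 8.70% of the 23 divergent transcripts. Regions antisense within a protein-coding gene were open throughout in 19.5%, against 33.9% of those outside protein-coding genes. The libraries fell into 130 patterns of presence. After all 8, the most frequent were both WT_5 libraries with both KO IFNγ libraries (151 regions, 7.95%), both WT_5 libraries with KO_C5 IFNγ (122, 6.42%), and the WT_5 libraries alone (97, 5.11%).

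The number of lncRNA promoters with a peak was highest in the longest lists, whose lengths ran from 16730 to 37533 peaks. A peak was found at 1008 in WT_4 untreated, 1553 in WT_5 untreated, 947 in WT_4 IFNγ, 1753 in WT_5 IFNγ, 861 in KO_C5 untreated, 903 in KO_D2 untreated, 1526 in KO_C5 IFNγ and 1365 in KO_D2 IFNγ. WT_5 had the most and the untreated KO clones the fewest. Clone means averaged 1315 ± 478 for WT against 1164 ± 42.1 for KO (SD, n = 2 clones), so the genotypes differed by less than the WT clones did from each other. The IFNγ libraries had 1398 ± 340 and the untreated ones 1081 ± 321 (SD, n = 4 libraries), and the 2 sets of libraries overlapped. As a share of each list, peaks at lncRNA promoters made up 4.71% and 5.39% in untreated WT, 5.11% and 4.77% in WT IFNγ, 4.56% and 5.56% in untreated KO, and 5.71% and 5.71% in KO IFNγ.

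**Figure D3:**
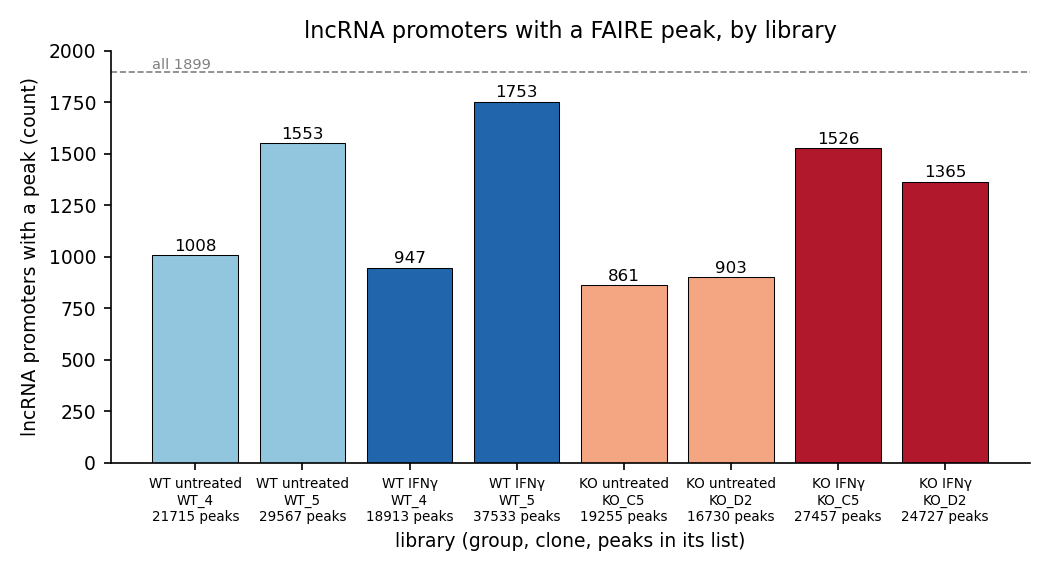
Number of the 1899 lncRNA promoters with a FAIRE peak (y axis, count) in each library (x axis, with group, clone and number of peaks in the list), WT in blue and KO in red, IFNγ in the darker shade. Each bar is 1 library, and the bars range from 861 to 1753.

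Within clones, IFNγ went with more open lncRNA promoters in 3 of 4. In WT_4 the number went from 1008 to 947, with 821 open in both states, 126 open in IFNγ alone and 187 in untreated cells alone. In WT_5 it went from 1553 to 1753, with 264 in IFNγ alone and 64 in untreated cells alone. Larger steps were seen in KO_C5, from 861 to 1526, with 709 in IFNγ alone and 44 in untreated cells alone, and in KO_D2, from 903 to 1365, with 494 and 32. The lists as a whole moved the same way in each clone, from 21715 to 18913 peaks in WT_4, 29567 to 37533 in WT_5, 19255 to 27457 in KO_C5 and 16730 to 24727 in KO_D2. The part of list length in these numbers was not tested.

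Peaks at lncRNA promoters were weaker than peaks at protein-coding promoters in every library. Their median percentile was 54.1 and 53.2 in untreated WT, 50.3 and 60.4 in WT IFNγ, 51.8 and 45.0 in untreated KO, and 49.8 and 50.4 in KO IFNγ. Peaks at protein-coding promoters stood at 66.6 and 72.2, 63.4 and 75.7, 66.3 and 61.2, and 69.9 and 69.4 in the same order. The difference was -16.2 percentile points on average and ran from -12.5 to -20.1, lower in 8 of 8 libraries (two-sided exact permutation test of signs over libraries, p = 0.00781, the smallest it can give). With the 2 libraries of a clone averaged, an exact test over 4 clones cannot go below p = 0.125, which is what it gave. Among regions open in all 8 libraries alone, the difference was -6.17 points.

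**Figure D4:**
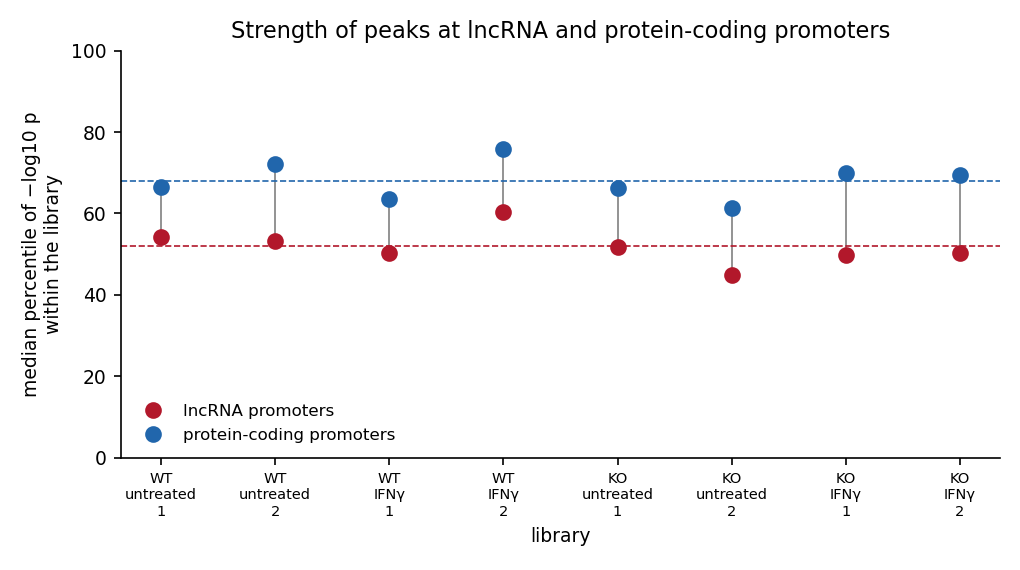
Median percentile of −log10 p within the library (y axis) of peaks at lncRNA promoters (red) and protein-coding promoters (blue) in each of the 8 libraries (x axis), with the mean over libraries as a dashed line and a grey line joining the pair. The red point lies below the blue one in all 8 libraries, by 12.5 to 20.1 points.

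Neither genotype nor IFNγ separated the libraries by the strength of lncRNA promoters. In these bulk libraries, a site less open in all cells and a site open in fewer cells cannot be told apart. The median percentile averaged 54.5 ± 3.26 for WT against 49.3 ± 2.21 for KO (SD, n = 2 clones), and the difference of 5.28 points turned to -0.917 when every list was shortened to its 16730 strongest peaks. IFNγ libraries had 52.7 ± 5.14 and untreated ones 51.0 ± 4.14 (SD, n = 4 libraries), and their difference also changed sign under equal lengths, to -1.54. Median fold enrichment was 17.0, 11.0, 13.6 and 14.7 in WT_4 untreated, WT_5 untreated, WT_4 IFNγ and WT_5 IFNγ, and 12.2, 11.7, 11.2 and 9.53 in KO_C5 untreated, KO_D2 untreated, KO_C5 IFNγ and KO_D2 IFNγ. Library ranges of WT and KO overlapped, while the clone means of fold enrichment, 14.1 ± 1.74 for WT against 11.1 ± 0.765 for KO (SD, n = 2 clones), did not, and nor did those of the percentile on full lists. With 2 clones a genotype, no exact permutation test over clones can give p below 0.333.

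The local background under lncRNA promoter peaks was higher in every KO library than in every WT library. The local background under the summit, solved from the deposited fold enrichment and −log10 p, had medians of 0.964 to 1.55 reads in WT libraries and 1.83 to 3.10 reads in KO libraries. The paper called these peaks in paired-end mode, so reads of pileup and background stand here for sequenced fragments. Median peak width at lncRNA promoters was 442.5 and 379 bp in WT_4 (untreated, IFNγ), 364 and 420 bp in WT_5, 348 and 367 bp in KO_C5, and 348 and 367 bp in KO_D2. WT_5 untreated lay below both KO IFNγ libraries, so the widths of single libraries overlapped, while the clone means did not, at 401 ± 13.3 bp in WT and 357.5 ± 0 bp in KO (SD, n = 2 clones). Summit pileups had medians of 26 to 34 reads in WT and 32 to 38 reads in KO. Fold enrichment divides the pileup by this background, so a KO peak of equal pileup carries a lower fold enrichment, and the part of the background in each genotype difference below was not tested.

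A peak in all libraries of 1 genotype and none of the other was rare. It was found for WT at 5 lncRNA promoters (0.263%), against 0.336% of all 31829 recurrent regions, and for KO at 0, against 0.0189% of all regions. The count is set by presence of peaks, which the choice of regions also used. In untreated libraries alone, 87 lncRNA promoters (4.58%) were open in both WT clones and neither KO clone, against 4.02% of all regions, and the reverse was found at 1 (0.0527%), DLGAP1-AS2, against 0.283%. In IFNγ libraries 30 (1.58%) were open in WT alone, against 1.88%, and 24 (1.26%) in KO alone, against 1.28%. The shares open in WT alone stood near those of all regions in each setting, as did the share open in KO alone with IFNγ, while in untreated cells the latter was below that of all regions, at a count of 1.

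Among the 5 lncRNA promoters open in WT libraries alone, only the strongest rose above the median peak of any library. ENSG00000287407 (chr6:170159935-170160567), the strongest of them, had percentiles of 51.6 in WT_4 untreated, 44.3 in WT_5 untreated, 30.7 in WT_4 IFNγ and 63.5 in WT_5 IFNγ. Its summit pileup was 27, 19, 13 and 31 reads in the same order, and it lay in an exon of its gene, 130136 bp from the nearest protein-coding TSS, that of FAM120B. ENSG00000286531 (chr3:53195707-53196243) had the most even values, with percentiles of 38.3, 38.9, 42.1 and 38.0, and lay 7401 bp from PRKCD, which encodes a protein kinase C. LINC02897 (chr1:247111142-247112411) had percentiles of 27.3, 2.90, 8.09 and 32.1 and pileups of 11, 7, 7 and 12 reads. ENSG00000289075 (chr5:2756496-2757203), 4819 bp from the homeobox gene IRX2, had 17.7, 0.352, 6.37 and 25.9 and pileups of 9, 6, 7 and 11 reads. The fifth, ENSG00000287642 (chr4:152937387-152937960), in an intron of FHDC1 and 1064 bp from its TSS, had 23.6, 12.8, 17.1 and 44.8.

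With IFNγ, 3 lncRNA promoters (0.158%) gained a peak in all 4 clones, against 0.207% of all regions, and 0 lost one in all 4, against 0.00314%. ENSG00000287145 had percentiles of 20.1 in WT_4, 27.4 in WT_5, 18.0 in KO_C5 and 15.0 in KO_D2 and pileups of 13, 14, 18 and 20 reads. It lay 332152 bp from the nearest protein-coding TSS, that of PKDCC. ENSG00000233096 (chr3:40971660-40972046) had 7.58, 8.58, 10.9 and 43.3, standing clearly higher in KO_D2 than in the other clones. ENSG00000226115 (chr21:46056543-46056893), in an intron of its gene and 41219 bp from the collagen gene COL6A2, had 12.7, 35.5, 23.5 and 26.1. No untreated library held a peak at any of them, and all 3 sat below the median peak of their libraries.

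By genotype, gains with IFNγ in both clones were found at 20 lncRNA promoters (1.05%) in WT, against 1.22% of all regions, and losses at 9 (0.474%), against 0.738%. In KO, gains in both clones were found at 275 (14.5%), against 11.0% of all regions, and losses at 2, ENSG00000270087 and LINC00937, against 0.261%. The KO gains stood at 5.74% of protein-coding promoters and 16.4% of distal regions, so the lncRNA promoters lay between both classes. The lists of both KO clones lengthened with IFNγ, as given above, and the part of that in the gains was not tested. The 275 regions had a median GC content of 58.7% and a CpG ratio of 0.471, below the 62.0% and 0.652 of all lncRNA promoters.

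At the 600 lncRNA promoters open in all 8 libraries, strength itself could be compared. The percentile was higher in every WT than in every KO library at 42 (7.0%), against 7.13% of the 11551 regions open throughout, and higher in every KO library at 1, ENSG00000287742, against 0.286%. It was higher in every IFNγ than in every untreated library at 9 (1.5%), against 0.996%, and higher in every untreated library at 1, ENSG00000249456, against 0.0779%. The split depended on the scale. When all lists were cut to equal length, 17 (3.26%) were higher in WT and 8 (1.54%) in KO of 521 open throughout. On that scale 10 (1.92%) were higher with IFNγ and 14 (2.69%) without. When percentiles were ranked among regions open in all 8 libraries, the counts were 18 (3.0%) and 9 (1.5%), and 14 (2.33%) and 13 (2.17%). The excess of WT over KO was thus 42 to 1 on the first scale and much smaller on the others, where the shares of all regions were 1.83% (WT) and 1.34% (KO) at equal lengths and 1.84% and 1.48% ranked. For IFNγ and untreated cells the shares of all regions were 0.849% and 2.14% at equal lengths and 1.01% and 2.05% ranked.

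LINC01270 (chr20:50292427-50293041) had the largest gap between IFNγ and untreated libraries among the 9 regions higher in every IFNγ library, and its summit lay in an exon, 3 bp from the TSS. Its percentile was 51.3 in WT_4 untreated, 56.3 in WT_5 untreated, 50.6 in KO_C5 untreated and 24.7 in KO_D2 untreated. With IFNγ it was 69.1, 82.2, 87.2 and 92.1 in the same clones, so that the groups did not overlap and each clone moved up. The difference of means was 36.9 points, and it was 41.2 at equal lengths and 46.9 ranked among regions open throughout, without overlap on any of the 3 scales. Fold enrichment was 13.2, 10.1, 10.4 and 6.99 in untreated WT_4, WT_5, KO_C5 and KO_D2 and 19.5, 29.1, 32.2 and 28.1 with IFNγ, and summit pileups went from 36, 36, 40 and 23 reads to 53, 91, 135 and 147 reads. The nearest protein-coding TSS, at 101597 bp, was that of CEBPB, a transcription factor of inflammatory and acute-phase genes. As the gene was picked for this gap, the values are a description, with no test.

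The next widest gaps with IFNγ were at ENSG00000267288 and ENSG00000291132. ENSG00000267288 (chr17:45172539-45173238), 10622 bp from HEXIM2, had percentiles of 56.7, 73.8, 29.0 and 33.8 in untreated WT_4, WT_5, KO_C5 and KO_D2 and 75.7, 78.5, 80.6 and 86.8 with IFNγ. This region lay 955 bp from the nearest lncRNA TSS, with its summit at -1344 bp, so it is tied to the gene by nearness alone. The untreated KO clones were the low ones, and the groups overlapped on both other scales. ENSG00000291132 (chr1:32240093-32240845), antisense in an intron of EIF3I, a translation initiation subunit, had 48.5, 44.5, 42.0 and 16 untreated and 48.8, 72.7, 66.7 and 51.3 with IFNγ, and the groups overlapped at equal lengths. The small RNA host SNHG32 and 1 of 2 regions of the microRNA host MIR9-1HG were also among the 9, with differences of 6.16 and 9.03 points. In the other direction ENSG00000249456 (chr10:124916501-124917628) had 97.4, 97.2, 97.5 and 97.6 untreated and 93.0, 96.6, 94.0 and 92 with IFNγ, a difference of -3.51 points that kept its direction without overlap on all 3 scales.

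Among the 42 regions higher in WT, the widest gaps were at ENSG00000291189, FGF12-AS2 and ENSG00000267388. ENSG00000291189 (chr12:3365823-3366420), 14929 bp from PRMT8, had percentiles of 60.2, 54.7, 51.5 and 53.7 in WT_4 untreated, WT_5 untreated, WT_4 IFNγ and WT_5 IFNγ and 40.6, 12.3, 19.3 and 31.4 in KO_C5 untreated, KO_D2 untreated, KO_C5 IFNγ and KO_D2 IFNγ, a difference of 29.1 points. FGF12-AS2 (chr3:192514479-192515463), in an intron of FGF12, a fibroblast growth factor homolog of neurons, had 69.99, 55.0, 60.6 and 68.8 in WT and 25.1, 38.3, 28.7 and 52.1 in KO, a difference of 27.5 points. Both overlapped between genotypes when ranked among regions open throughout. ENSG00000267388 (chr19:35958970-35960330), 22596 bp from LRFN3, had 48.6, 54.7, 43.1 and 67.9 in WT and 24.6, 10.8, 31.1 and 38.1 in KO, and kept its separation on that scale, with a difference of 9.59 points. At equal lengths ENSG00000291189 kept a peak in 5 libraries and the other regions in 7.

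The local background moved with these 3 regions. At FGF12-AS2 it was 0.672 to 1.11 reads in WT and 1.91 to 3.05 reads in KO, at ENSG00000291189 1.10 to 1.77 and 2.59 to 4.53 reads, and at ENSG00000267388 0.667 to 1.15 and 1.88 to 3.21 reads. Their summit pileups overlapped between genotypes, at 26 to 58 and 20 to 38 reads, 26 to 44 and 18 to 33 reads, and 19 to 38 and 15 to 29 reads. At ENSG00000287742 (chr2:127407742-127408855), the 1 region higher in KO, percentiles were 95.9, 94.5, 90.8 and 94.5 in WT and 97.5, 96.7, 96.7 and 97.5 in KO, with overlap on both other scales. The 42 regions higher in WT had a median GC content of 72.8%, against 68.3% at all 600, and TTAGGG in 6 of 42 (14.3%), against 52 of 600 (8.67%). The control hexamer GTGAGT was found in 9.52% of the 42, against 12% of the 600.

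**Figure D5:**
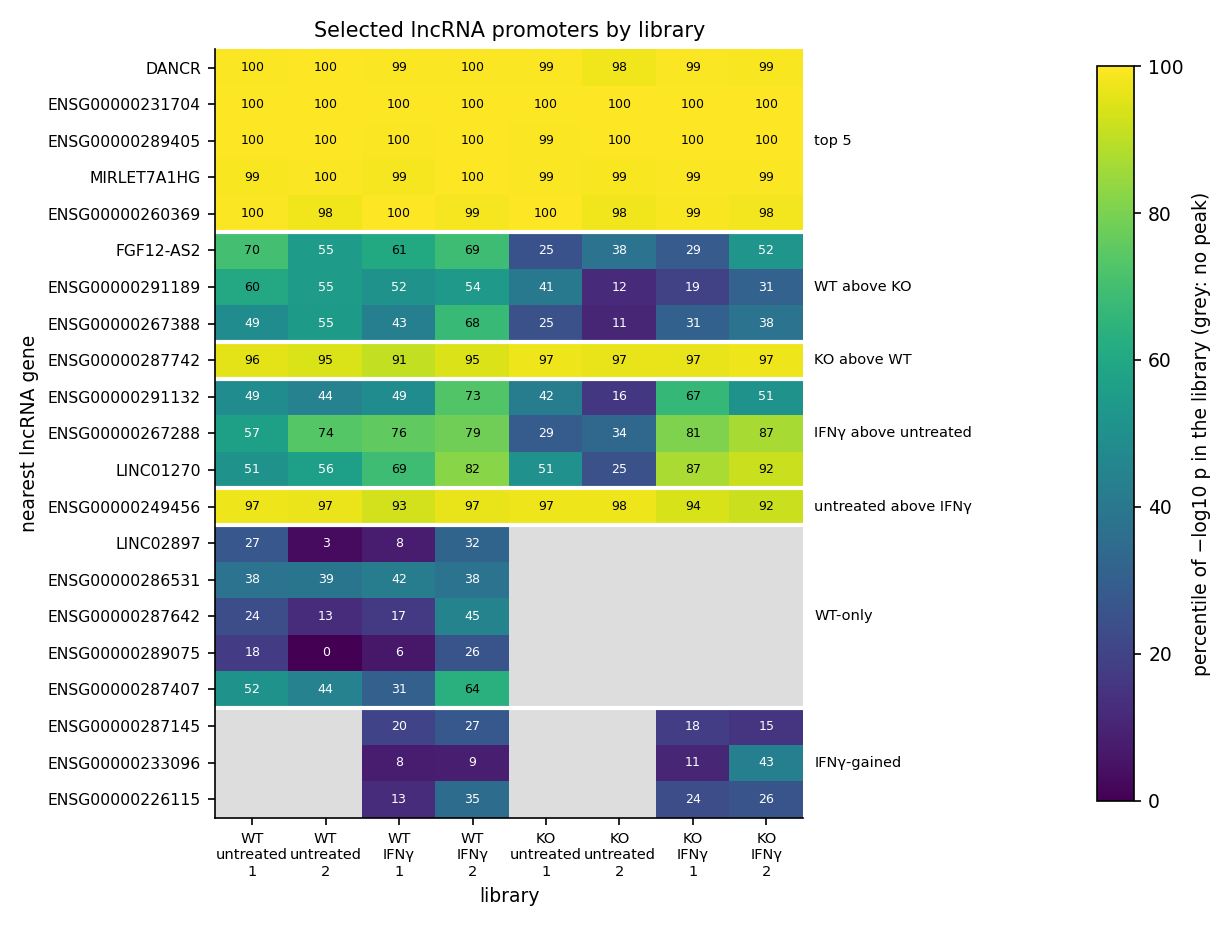
Percentile of −log10 p within each library (colour and number in each cell, 0 weakest, 100 strongest, grey for no peak) of 21 selected lncRNA promoters (rows, grouped by how they were selected, at right) in the 8 libraries (columns, replicate 1 and 2 being WT_4 and WT_5 or KO_C5 and KO_D2). LINC01270 brightens in all 4 IFNγ columns, while the WT-only and IFNγ-gained rows stay below those values, at percentiles of 0.352 to 63.5 and 7.58 to 43.3.

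The strongest lncRNA promoters stood near the top of every library. The 5 with the highest mean percentile were ENSG00000231704 (chr7:6081171-6081891), ENSG00000289405, MIRLET7A1HG (chr9:94165741-94167237), DANCR (chr4:52712087-52713098) and ENSG00000260369 (chr17:80454113-80455548), and their lowest percentiles in any library were 99.8, 99.5, 98.5, 98.0 and 97.8. At DANCR, the fold enrichment was 137, 88.4, 76.3 and 99.2 in WT_4 untreated, WT_5 untreated, WT_4 IFNγ and WT_5 IFNγ and 58.4, 41.9, 48.5 and 33.9 in KO_C5 untreated, KO_D2 untreated, KO_C5 IFNγ and KO_D2 IFNγ. The summit pileups there were 363, 302, 191 and 296 reads in WT and 321, 200, 335 and 268 reads in KO, which overlapped, beside local backgrounds of 1.51 to 2.43 and 3.802 to 6.93 reads. At DANCR the fold enrichment therefore did not overlap between genotypes, while the pileup did.

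Hosts of small nucleolar RNAs, which are spliced transcripts whose introns carry the small RNAs, were the most uniformly open of the gene lists. Of 18 hosts, 11 had a lncRNA promoter, with 12 regions of which 11 were open in all 8 libraries. A further 5 (GAS5, ZFAS1, SNHG1, SNHG3 and SNHG5) lay beside a protein-coding TSS, and SNHG14 and CYTOR had no peak. Median percentiles of the regions open throughout ran from 74.4 at SNHG6 to 99.3 at DANCR, with 90.1 at SNHG15, 89.4 at SNHG12, 86.4 at EPB41L4A-AS1 and 80.0 at SNHG7. At SNHG12, percentiles lay between 83.8 and 91.1 in all 8 libraries, while at SNHG29 they ranged from 44.3 in KO_C5 untreated to 96.4 in WT_5 IFNγ. Among all lncRNA promoters the share open in all 8 libraries was 31.6%, as given above.

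Hosts of microRNAs were more mixed. Of 17, 11 had a lncRNA promoter, with 16 regions of which 7 were open in all 8 libraries. The host of the hypoxia-linked miR-210, MIR210HG, was strong throughout, with percentiles of 82.7 to 93.7. MIR34AHG, host of the p53 target miR-34a, was weak, at 41.0, 32.6, 32.3 and 53.7 in WT_4 untreated, WT_5 untreated, WT_4 IFNγ and WT_5 IFNγ and 18.4, 26.9, 18.0 and 10.7 in KO_C5 untreated, KO_D2 untreated, KO_C5 IFNγ and KO_D2 IFNγ. The WT values lay above the KO values at MIR34AHG without overlap, which made it 1 of the 42 regions stronger in WT. MIR29B2CHG stood at 62.5 to 79.6 and MIR193BHG at 55.1 to 75.7, whereas MIR222HG, host of miR-221 and miR-222, had a peak in 4 libraries only, at 28.7 in WT_5 untreated, 16.4 in WT_5 IFNγ, 16.2 in KO_C5 IFNγ and 42.0 in KO_D2 IFNγ.

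Of 24 nuclear or cancer-linked lncRNA genes, 13 had a lncRNA promoter, with 32 distinct regions of which 9 were open in all 8 libraries. MALAT1 and NEAT1, which are retained in nuclear speckles and paraspeckles, each had a region strong throughout, with percentiles of 97.8 to 99.5 and 89.9 to 97.7. A second MALAT1 region (chr11:65498849-65499221), with its summit at an annotated TSS, had a peak in 5 libraries, at 20.4 to 68.4. At the first MALAT1 region, the fold enrichment was 128, 86.0, 74.6 and 117 in WT_4 untreated, WT_5 untreated, WT_4 IFNγ and WT_5 IFNγ and 61.1, 45.8, 53.8 and 40.3 in KO_C5 untreated, KO_D2 untreated, KO_C5 IFNγ and KO_D2 IFNγ. Median fold enrichment at protein-coding promoters was also higher in every WT library, as given above. The part of the local background in the MALAT1 values was not tested. NORAD, which binds Pumilio proteins, ranged from 50.1 in WT_4 untreated to 80.6 in KO_C5 IFNγ. PVT1, a neighbour of MYC, had 5 regions, 2 of them open throughout at 59.8 to 79.0 and 63.8 to 91.7. LINC00511 had 10 regions spread along its gene, of which 1 (chr17:72592357-72593049) was open in all 8 libraries, at 82.0, 72.0, 70.7 and 62.9 in WT_4 untreated, WT_5 untreated, WT_4 IFNγ and WT_5 IFNγ and 47.2, 31.8, 60.6 and 50.4 in KO_C5 untreated, KO_D2 untreated, KO_C5 IFNγ and KO_D2 IFNγ.

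Of 14 interferon and immune-linked lncRNA genes, 3 had a lncRNA promoter, where 1929 of all 18756 annotated lncRNA genes had one. The 3 genes had 3 regions and 0 of these were open in all 8 libraries. Of the other genes, 5 lay beside a protein-coding TSS, 5 had no peak and 1 had a peak in 1 list only. IRF1-AS1, transcribed from the locus of the interferon-induced factor IRF1, had a peak in WT_5 untreated (53.9), WT_5 IFNγ (60.2), KO_C5 IFNγ (24.1) and KO_D2 IFNγ (27.8). HCG27, in the major histocompatibility complex, had one in the same libraries (49.2, 71.9, 56.1 and 61.1) and in KO_D2 untreated (12.2). HLA-F-AS1 lacked a peak in KO_C5 untreated only, and stood at 36.3, 81.9 and 33.9 in the other untreated libraries (WT_4, WT_5 and KO_D2) and at 53.4, 85.8, 80.8 and 71.7 in the IFNγ libraries of WT_4, WT_5, KO_C5 and KO_D2. In each clone with both values, the IFNγ value of these 3 genes was the higher one, and WT_5 had a peak at each in both states. The median percentile of the 600 lncRNA promoters open in all 8 libraries also rose with IFNγ in WT_5 (75.7 to 81.5) and KO_D2 (59.6 to 73.3). It fell in WT_4 (68.4 to 65.6), and whether the 3 genes differ from this shift was not tested.

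Of 20 HOX and developmental lncRNA genes, 7 had a lncRNA promoter and 9 lay beside a protein-coding TSS. Only LINC01116, in the HOXD neighbourhood, was open in all 8 libraries, at 62.6 to 78.4. HOTAIR, transcribed from the HOXC cluster, had 2 regions, and 1 of them (chr12:53974470-53974913) had a peak in 3 WT libraries and no KO library, at 36.1 in WT_4 untreated, 42.9 in WT_5 untreated and 65.4 in WT_5 IFNγ. The same pattern of libraries was found at 12 of all lncRNA promoters (0.632%). HOXA11-AS, FENDRR and 1 of 2 HOXA-AS2 regions were found in 2 WT libraries each, all at percentiles of 1.29 to 11.8. Among all lncRNA promoters, 97 had a peak in the WT_5 libraries alone, 29 in WT_4 untreated and WT_5 IFNγ alone, and 17 in the WT_4 libraries alone. The share of such patterns over all recurrent regions was not counted. Of 9 imprinted genes, 3 had a lncRNA promoter, and KCNQ1OT1, which silences neighbouring genes in cis, stood at 56.9 to 85.1 in all 8 libraries. The PEG13 region was open in all 8 at 31.8 to 89.6. It lay 966 bp from the nearest PEG13 TSS, with its summit 1297 bp downstream of that TSS. GNAS-AS1 was open in 7, all but WT_4 untreated. H19 and MEG3 were among the 5 imprinted genes with no peak.

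TERC, the RNA template of telomerase, had a lncRNA promoter in the WT_4 libraries alone, at a percentile of 22.6 untreated and 1.21 with IFNγ and a fold enrichment of 6.33 and 3.72. It had no peak in WT_5 or either KO clone, so that presence differed between the WT clones themselves. U2OS cells maintain their telomeres by recombination without telomerase, and whether the RNA was made was not measured here.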

How the data were processed

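FAIRE-seq was performed by the study in 8 libraries, 1 untreated and 1 IFNγ-treated library from each of 4 U2OS clones. The authors trimmed reads (Trimmomatic), aligned them to GRCh38 (Bowtie2 2.2.5) and called peaks per library with MACS2 2.2.7.1, per the submitters' processing notes (SAMtools 1.14 and deepTools 3.5.1 are also named). Whether an input control was used and how duplicates were treated is not given in the sources used here. The deposited lists, 1 per library, hold for each peak a score, the fold enrichment at the summit as a linear ratio, −log10 p, −log10 q and the summit position. They give no read totals, so the depth is unknown and sets no interval here. The summit pileup and local background were solved from the deposited fold enrichment and −log10 p, over whole-number pileups only. The solution returned −log10 p to within a fraction of 0.001 for 100% of 9916 peaks at lncRNA promoters.

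Peaks were merged across lists and compared with transcript starts of GENCODE 44. Strength was the percentile of −log10 p within a list. Groups followed the labels, and clones WT_4 and KO_C5 are replicate 1, WT_5 and KO_D2 replicate 2. Untreated and IFNγ libraries come from the same clone, and their deviations from the group means correlated at 0.443 in WT and 0.131 in KO. Comparisons over libraries used two-sided exact permutation tests, over clones for genotype. Values summed over the chosen regions carry no p for genotype or IFNγ. The merging, classing and tests were tested on simulated data. Alternatives were lists of equal length, stricter peaks, other windows and TSS definitions, other overlap and recurrence, the clone as a block, each library left out, and percentiles ranked among regions open in all 8 libraries. RefSeq's promoter table matched 531 of 1929 lncRNA genes (27.5%) by symbol and was not used for sequences, which were read from GRCh38. The sequence at 1 named region is not reported here. Python 3.11.15, pandas 2.3.3, NumPy 2.4.6, SciPy 1.17.1 and matplotlib 3.10.9 were used.

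Genes named in the text were those of fixed lists of lncRNA genes, the 5 regions highest in mean percentile, up to 5 regions of each presence call over all libraries, and up to 3 with the widest gap for each call on strength. DLGAP1-AS2, ENSG00000270087, LINC00937, FAM182B and the regions at the limits of the rule were named after their values were seen. The regions and gene lists were chosen with earlier results of these data known.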

Additional observations from a re-analysis of the deposited data

Results flagged for a closer look

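Of 37 groups of library values examined, 2 held a library far from the rest, where chance flags about 1 in 20. The median percentile of peaks at lncRNA promoters was 60.4 in WT_5 IFNγ, against 49.8 to 50.4 in the other IFNγ libraries. WT_5 IFNγ also had the longest list, 37533 peaks. The median width of peaks at lncRNA promoters was 442.5 bp in WT_4 untreated, against 348 to 364 bp in the other untreated libraries. WT_4 untreated also had the highest median fold enrichment, 17.0.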

How the results depend on the processing

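Of 352 alternative values of 21 results, 285 held, 53 moved, 13 changed sign and 1 lost its call. A tested result held when it kept its direction and side of the threshold of 0.05. Genotype results could not cross it, as their exact p cannot go below 0.333, so only their direction could change. A count held within a fixed 1.5-fold of the main value, and the share in all 8 lists within its 95% interval. With lists of equal length (16730 peaks), the share of peaks at lncRNA promoters in WT minus KO became 0.105 percentage points, the median percentile -0.917 (WT minus KO) and -1.54 (IFNγ minus untreated), and the median fold enrichment 1.23 (IFNγ minus untreated). That setting left 1234 lncRNA promoters, 42.2% of them in all 8 lists, with 1 open in KO alone, 2 lost with IFNγ, and 17, 8 and 14 stronger in every WT, KO and untreated library. Peaks of −log10 q of at least 3, fold enrichment of at least 4, and regions more than 5 kb from a protein-coding TSS each left 3 open in WT alone. The share in all 8 lists was 34.5% with a 500 bp window, 38.3% with 3 or more lists and 40.3% with the gene's 5′ end as TSS, where 3 were stronger in KO and the share of peaks with IFNγ turned to -0.0957 points. The value for 3 or more lists follows from leaving regions in 2 lists out of the base. Ranked among regions in all 8 lists, an alternative chosen after seeing the data, 18, 9, 14 and 13 were stronger in WT, KO, IFNγ and untreated libraries. With the clone as a block, the difference from protein-coding promoters stayed at -16.2 points but its exact p was 0.125, the smallest 4 clones can give. The same limit holds for the IFNγ results, none of which had passed the threshold, so the block could change no other call.

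Leaving out 1 library gave ranges of 198.8 to 471 (IFNγ minus untreated) and -10.75 to 307.5 (WT minus KO, lowest without KO_C5 untreated) for regions with a peak. IFNγ minus untreated ranged from -0.412 (without WT_5 IFNγ) to 3.12 in percentile, -6.17 to 30.2 bp in width and -1.73 to 0.799 (without WT_4 untreated) in fold enrichment. The share with a peak in all remaining lists ran from 33.1% to 36.0%. It asks for a peak in 1 list fewer than the main share does, so the values are not like for like. WT-only regions numbered 5 to 17, KO-only 0 to 3, IFNγ-gained 3 to 46 and IFNγ-lost 0 to 3. Regions stronger in every WT, KO, IFNγ and untreated library numbered 44 to 115, 1 to 3, 10 to 73 and 1 to 10. The highest WT-only, IFNγ-gained, WT-stronger and IFNγ-stronger counts came without WT_4 IFNγ. The highest KO-only count came without KO_D2 untreated, the highest IFNγ-lost count without KO_C5 IFNγ, and the highest untreated-stronger count without WT_5 IFNγ. Leaving out any library also leaves fewer libraries to meet a call, and the cause of these changes was not tested. Peak lists carry no depth, so a region without a peak may be open below the calling threshold, and 2 clones a genotype cannot give an exact p below 0.333.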
